A study of Mus musculus with 45 samples.

Results

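The circadian clock genes Arntl, Npas2, Cry1, Per2, Per3, Dbp, Tef, Nr1d1 and Nr1d2 and the nocturnin gene Ccrn4l were followed mouse by mouse in RNA-seq of the epithelium that lines the colon. Their 10 entries were taken by gene symbol from a count table of 24918 gene entries, and all 10 were among the 12961 genes that passed the filter on low counts. These genes were chosen from measured values of the same libraries, the difference in Ccrn4l included, so their differences between groups are given as a description and not as a test. Epithelium came from male C57BL/6 mice (C57BL/6J in the methods of the study) that were 6 weeks old when the diets began, with 5 mice in each of 3 groups. Control mice (LF) ate a diet with 10% fat for 20 weeks and obese mice (HF) a diet with 60% fat for 20 weeks. Formerly obese mice (HFLF) ate the 60% fat diet for 15 weeks and then the 10% fat diet for 5 weeks. The epithelium was freed from the whole colon with EDTA and was not sorted, and the clock time of tissue collection was not given in the sources used here. In such bulk samples, fewer cells of a type and less RNA per cell cannot be told apart.

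The mammalian clock is a feedback loop of transcription that runs in nearly every cell. ARNTL (also called BMAL1), paired with CLOCK or its relative NPAS2, activates genes through E-boxes, and the PER and CRY proteins made from some of these genes repress that activity until they are broken down. The nuclear receptors NR1D1 and NR1D2 (REV-ERB alpha and beta), themselves E-box targets, repress Arntl, and the transcription factors DBP and TEF drive a further set of rhythmic genes through D-boxes. Arntl and Npas2 therefore peak at the opposite time of day from Nr1d1 and Dbp, and Cry1 peaks later than the Per genes. Nocturnin, encoded by Ccrn4l (now Noct), is a rhythmic enzyme that removes a phosphate from NADP(H), was long described as a deadenylase, and is known for its part in the uptake of dietary fat in the intestine.

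Upstream sequence is shown for the genes whose proximal promoter holds a clock motif and, for contrast, for Ccrn4l, whose window holds none. The windows are the 250 bases before the annotated start (RefSeq, GRCm38.p6, the build named mm10), each 5' to 3' on the strand of its gene. Capitals mark matches to the motifs searched on both strands, namely the E-box CACGTG, the E-box variant AACGTG, the D-box TTATGTAA or TTACGTAA, the RORE TAGGTCA or TGGGTCA and the cyclic AMP response element TGACGTCA. No motif contains another, and the E-box and its variant were counted separately. For Tef, the window of the upstream start is shown.
Cry1, chr10:85185055-85185304, minus strand: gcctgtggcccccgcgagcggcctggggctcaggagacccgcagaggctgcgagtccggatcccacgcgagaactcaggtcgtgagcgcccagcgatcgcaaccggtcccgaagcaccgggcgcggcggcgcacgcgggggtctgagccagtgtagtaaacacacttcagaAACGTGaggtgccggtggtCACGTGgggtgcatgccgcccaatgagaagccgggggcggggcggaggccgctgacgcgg
Per3, chr4:151044666-151044915, minus strand: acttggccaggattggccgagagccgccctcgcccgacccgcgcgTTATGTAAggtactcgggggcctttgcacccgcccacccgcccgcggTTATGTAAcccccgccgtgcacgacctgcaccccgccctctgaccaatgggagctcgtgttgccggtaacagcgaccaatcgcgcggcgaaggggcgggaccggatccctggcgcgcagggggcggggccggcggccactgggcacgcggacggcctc
Tef, chr15:81802423-81802672, plus strand: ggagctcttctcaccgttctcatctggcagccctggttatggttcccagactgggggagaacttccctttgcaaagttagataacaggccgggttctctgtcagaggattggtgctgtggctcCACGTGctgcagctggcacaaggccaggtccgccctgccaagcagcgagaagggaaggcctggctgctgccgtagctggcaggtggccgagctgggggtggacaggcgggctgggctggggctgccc
Nr1d1, chr11:98775378-98775627, minus strand: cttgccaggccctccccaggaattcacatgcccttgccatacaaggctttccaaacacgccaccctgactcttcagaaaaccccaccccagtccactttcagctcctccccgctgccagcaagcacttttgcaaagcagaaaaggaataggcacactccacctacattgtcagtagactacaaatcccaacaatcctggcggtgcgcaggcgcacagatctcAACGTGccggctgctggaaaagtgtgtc
Ccrn4l, chr3:51224197-51224446, plus strand: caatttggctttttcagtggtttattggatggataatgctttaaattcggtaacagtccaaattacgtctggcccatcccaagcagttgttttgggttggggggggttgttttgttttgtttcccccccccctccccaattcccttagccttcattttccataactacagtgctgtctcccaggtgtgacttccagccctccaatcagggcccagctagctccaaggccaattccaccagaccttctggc

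Windows were at hand for 9 of the 10 genes and not for Per2. The Cry1 window held an E-box that begins 60 bases before the start and an E-box variant that begins 79 bases before it. The Per3 window held 2 D-boxes, which begin 205 and 158 bases before the start. Tef held an E-box 127 bases before the start, and the window of its second start held another E-box 138 bases before it. The Nr1d1 window held an E-box variant 28 bases before the start. None of these letters occurred in the windows of Arntl, Npas2, Dbp, Nr1d2 and Ccrn4l. Over all 32851 windows of this length, 6.02% held the E-box, 3.85% the E-box variant, 0.931% a D-box, 5.38% a RORE and 1.55% a cyclic AMP response element. A match of letters is a description of the sequence and not a binding site.

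The 15 libraries held 15230391 to 22762095 gene counts. Formerly obese libraries held 16114562 to 22762095, control libraries 15230391 to 16718408 and obese libraries 15591904 to 16749096. The summed level of 8 epithelial marker genes was 14200 to 17000 CPM in every library (counts relative to the scaled library size), against 5.91 to 38.9 CPM for 7 fibroblast markers, 24.8 to 282 CPM for 8 immune markers and 0.509 to 1.96 CPM for 6 nerve and glia markers, and Plin1, Lep and Sox10 had no count in any library. Counts of the 10 genes ran from 138, the lowest for Cry1, to 3313, the highest for Nr1d1. Exons of Per2, Per3, Dbp and Nr1d1 overlap Gm35591, Uts2, Sphk2 and Thra on the opposite strand over 698, 139, 539 and 471 bases. The strand setting of the counting was not given in the sources used here, so counts of these genes can hold reads of their neighbours.

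Per kilobase of exon, Nr1d1 was the most abundant of the 10 genes in control mice, with 53.9 ± 12.2 CPM per kb (SD, n = 5). Dbp, Nr1d2 and Tef followed at 26.0 ± 9.53, 23.4 ± 5.12 and 20.0 ± 5.24 CPM per kb and did not differ beyond their spread. Ccrn4l stood at 14.4 ± 1.21 CPM per kb, within the lower SD of Tef plus its own. Per2, Per3 and Npas2 lay at 7.82 ± 1.71, 7.01 ± 2.09 and 5.85 ± 1.65 CPM per kb, again not apart beyond their spread. Arntl and Cry1 were lowest, at 3.37 ± 1.13 and 3.22 ± 0.96 CPM per kb. In formerly obese mice Ccrn4l reached 21.5 ± 1.70 CPM per kb, a level next to that of Tef in the same mice, 19.8 ± 4.56 CPM per kb.

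Arntl, the obligate activator of the loop (chr7:113207465-113314126), was measured at 21.99, 29.1, 32.3, 52.9 and 39.1 CPM in control mice 1 to 5. It was at 34.3, 25.7, 33.5, 32.9 and 32.9 CPM in obese mice and at 39.4, 31.9, 51.6, 32.4 and 55.6 CPM in formerly obese mice. The 3 groups overlapped, and the highest values belonged to formerly obese mice 5 and 3 and to control mouse 4. Npas2, which can take the place of CLOCK (chr1:39194272-39363240), was at 16.3, 24.4, 24.7, 36.3 and 29.7 CPM in control mice and at 26.7, 15.0, 25.3, 17.2 and 21.3 CPM in obese mice. In formerly obese mice it was at 28.5, 23.2, 32.4, 21.3 and 37.2 CPM. The same 3 mice were again the highest, and the groups overlapped.

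Cry1, the repressor that acts late in the cycle (chr10:85131700-85185054), was at 10.5, 9.04, 14.8, 18.5 and 11.2 CPM in control mice. Obese mice had 14.2, 14.6, 18.8, 16.5 and 16.0 CPM and formerly obese mice 16.5, 19.4, 15.9, 19.6 and 15.0 CPM. Control mice 1, 2 and 5 lay below every mouse of the other groups, and control mice 3 and 4 lay among them. Per2, a repressor and an E-box target (chr1:91415982-91459328), was at 53.3, 58.4, 49.4, 32.0 and 42.1 CPM in control mice and at 58.7, 60.2, 63.8, 65.1 and 64.3 CPM in obese mice. In formerly obese mice it was at 58.4, 75.9, 32.4, 81.9 and 40.9 CPM. Obese mice held a narrow range above every control mouse, with 58.7 CPM against 58.4 CPM at the nearest point, while formerly obese mice spread past both ends of it. Per3, a paralogue of Per2 that the core loop can run without (chr4:151003655-151044665), ranged from 24.3 to 62.4 CPM in control, from 41.5 to 54.9 CPM in obese and from 28.0 to 54.0 CPM in formerly obese mice, with control mouse 4 and formerly obese mouse 3 lowest in their groups.

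**Figure D1:**
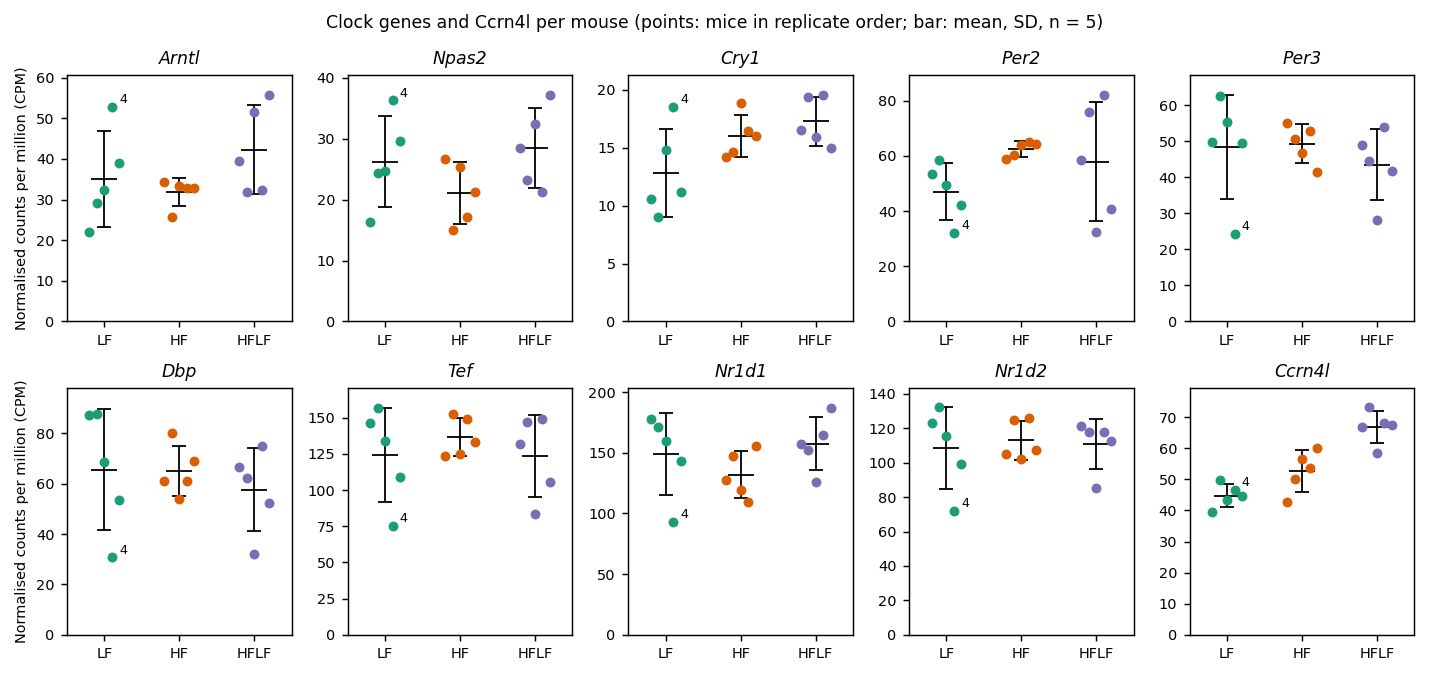
CPM (counts relative to the scaled library size) of the 10 genes in each mouse, by group, with each point a mouse in the order 1 to 5, the bar at the group mean and its whiskers the SD (n = 5). Control mouse 4, marked 4, is highest of its group for Arntl, Npas2 and Cry1 and lowest for Per2, Per3, Dbp, Tef, Nr1d1 and Nr1d2, while for Ccrn4l it sits at 46.6 CPM inside its group.

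Dbp, a D-box activator and among the most strongly rhythmic transcripts known (chr7:45705247-45710203), was at 87.1, 87.8, 68.5, 30.8 and 53.7 CPM in control mice. Obese mice had 61.2, 80.1, 53.8, 61.1 and 69.2 CPM and formerly obese mice 66.7, 62.3, 32.3, 74.9 and 52.4 CPM. Control mouse 4 and formerly obese mouse 3 had less Dbp than every other mouse, and the groups overlapped. Tef, its relative in the same family (chr15:81802673-81826863), had its lowest values in the same mice, 75.3 CPM in control mouse 4 and 83.3 CPM in formerly obese mouse 3. The other 13 mice had 106 to 156.5 CPM.

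Nr1d1 (chr11:98767932-98775377) was at 177.5, 171.5, 159.8, 93.2 and 143 CPM in control mice and at 127.6, 147.7, 119, 109.6 and 155 CPM in obese mice. It was at 157.5, 151.9, 126, 164.7 and 187 CPM in formerly obese mice, so that the groups overlapped and control mouse 4 was lowest of all. Nr1d2 (chr14:18204056-18239106) ranged from 71.9 to 132 CPM in control, from 102 to 126 CPM in obese and from 85.4 to 121 CPM in formerly obese mice. Its lowest values were those of control mouse 4 and formerly obese mouse 3.

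Ccrn4l (chr3:51224447-51251654) was at 39.6, 49.7, 43.3, 46.6 and 44.6 CPM in control mice. It was at 42.6, 50.1, 56.5, 53.8 and 60.1 CPM in obese mice. In formerly obese mice it was at 66.8, 73.3, 58.6, 68.1 and 67.5 CPM. Every formerly obese mouse lay above every control mouse, while the obese mice overlapped both groups, since obese mouse 1 lay among the controls and obese mouse 5 passed formerly obese mouse 3. The group means were 44.8 ± 3.75, 52.6 ± 6.70 and 66.8 ± 5.29 CPM (SD, n = 5) in control, obese and formerly obese mice. Control mouse 4 and formerly obese mouse 3, which stood at an end of their groups for most clock genes, were second highest and lowest of their groups for Ccrn4l.

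Differences between groups were fitted with edgeR over all genes, and a gene was called when it differed by over 1.2-fold with a p under 0.01 and an adjusted p under 0.25. In formerly obese against control mice, Ccrn4l differed by a log2 fold change of 0.58 (SE 0.08, a fold of 1.49) and was the only member of the 10 to be called, where 3.72% of all tested genes were. DESeq2 also called Cry1. For formerly obese against obese mice the log2 fold change of Ccrn4l was 0.34 (SE 0.08, a fold of 1.27), and it was again the only called member, where 2.65% of tested genes were. Between obese and control mice it was 0.23 (SE 0.08), and 0 of the 10 genes were called by edgeR in this fit or by DESeq2, where 1.58% of tested genes were. Ccrn4l was called between these groups in 1 of 25 alternative settings, without obese mouse 1 (0.297). The 3 comparisons share libraries in pairs, and the members were picked with such differences known, so nothing is read from these counts.

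The 9 clock genes had larger standard errors. In formerly obese against obese mice, Arntl, Npas2 and Cry1 were above 0 and Per2, Per3, Dbp, Tef and Nr1d2 below 0. Only Nr1d1 (0.255, SE 0.144) departed from this opposition of the activators and Cry1 to the other clock genes. Cry1 and the genes below 0 differed there by less than their standard errors. The comparisons with control mice showed no such opposition. Whether this reflects clock phase was not tested. Cry1 differed by a log2 fold change of 0.32 (SE 0.15) between obese and control mice and of 0.43 (SE 0.15) between formerly obese and control mice. Without control mouse 4 both values were larger, 0.49 and 0.60, and passed the call. For formerly obese against control mice Cry1 was called in 6 of 25 alternative settings. Per2 differed by 0.41 (SE 0.20) between obese and control mice, and was the only member whose CPM did not overlap between these groups, where 2.47% of tested genes did not. Arntl and Npas2 were higher in formerly obese than in obese mice by 0.41 (SE 0.19) and 0.44 (log2 fold changes), and without formerly obese mouse 5 by 0.29 and 0.32. The log2 fold changes of Per3, Dbp, Tef, Nr1d1 and Nr1d2 lay between -0.19 and 0.26 in the 3 comparisons. In CPM, Ccrn4l was the only member without overlap between formerly obese and control mice, where 3.62% of tested genes had none, and 0 members were without overlap between formerly obese and obese mice, where 3.38% of tested genes were.

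**Figure D2:**
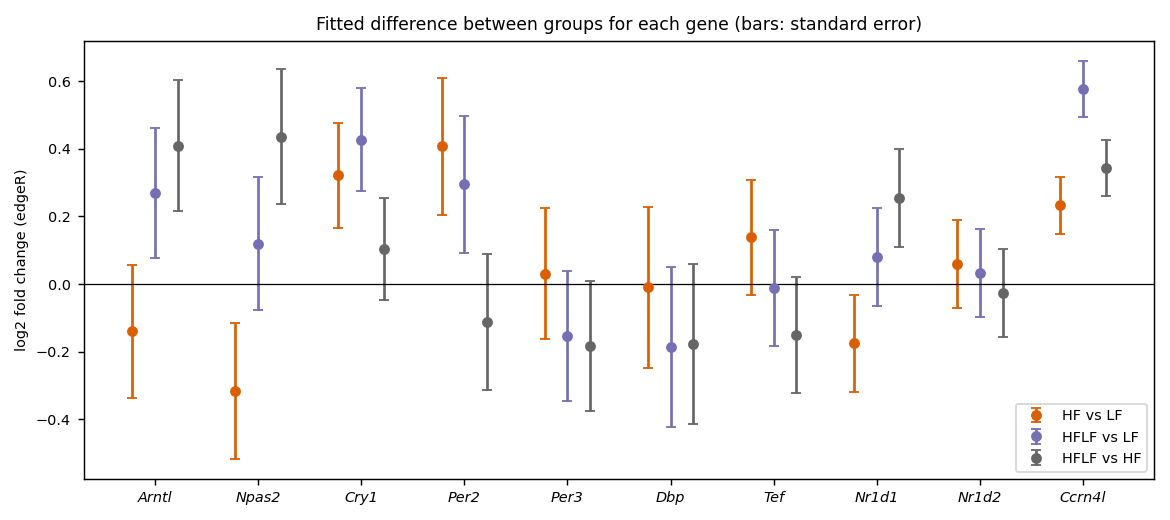
Fitted log2 fold change (vertical axis, edgeR) of each of the 10 genes in the 3 comparisons, with the standard error as whiskers. Ccrn4l has the highest value between formerly obese and control mice, 0.58, and the shortest whiskers, 0.08, of the 10 genes.

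Mice of the same group differed more in clock genes than in most genes of like abundance. The SD of log2 CPM within groups was 0.47 for Dbp, 0.39 for Per2, 0.38 for Per3, 0.37 for Npas2, 0.36 for Arntl and 0.33 for Tef. Set beside the 500 tested genes nearest in mean level, these 6 SDs stood at percentiles 98 to 99.4. Cry1, Nr1d1 and Nr1d2, with SDs of 0.27, 0.28 and 0.25, stood at percentiles 93, 99 and 96.4. Ccrn4l had the smallest SD of the 10, 0.15, at percentile 83.4.

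The clock genes moved together from mouse to mouse, in 2 opposed sets, though Cry1 did so only weakly. Over the deviations of 15 mice from their group means, Pearson's r between pairs among Dbp, Tef, Per2, Per3, Nr1d1 and Nr1d2 was 0.49 to 0.96 over 15 pairs, with a median of 0.84. Arntl and Npas2 had r = 0.90 with each other, while Cry1 had r = 0.31 and 0.21 with them. Between the sets, the 18 pairs had r of -0.89 to -0.06 with a median of -0.65, the weakest being Cry1 with Per2. Ccrn4l had r of 0 to 0.35 with the 9 clock genes (median 0.12), and its highest value was with Per2. Without control mouse 4, its r was higher with each of Dbp, Tef, Per2, Per3, Nr1d1 and Nr1d2. These values ran from 0.15 (Per3) to 0.36 (Tef) and 0.44 (Per2). With Arntl, Npas2 and Cry1 its r was then -0.07, -0.05 and 0.24. Points of one library share its depth and scaling, and these r are descriptions with no test.

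**Figure D3:**
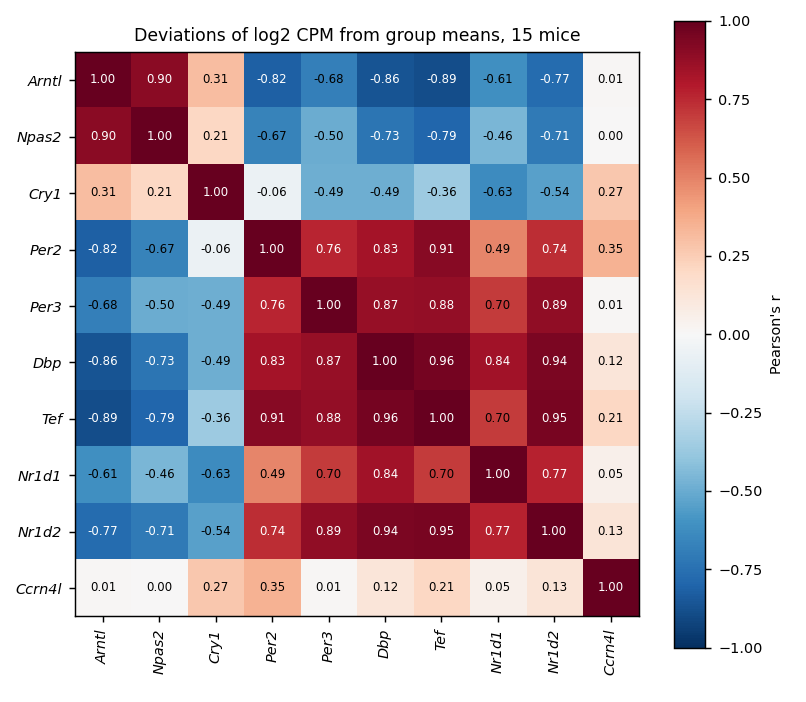
Pearson's r between each pair of the 10 genes, over the deviations of log2 CPM from group means in 15 mice (red positive, blue negative). Arntl and Npas2 (r = 0.90 with each other) oppose the 6 genes from Per2 to Nr1d2, and the row of Ccrn4l holds values from 0 to 0.35.

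To place each mouse along this pattern, a clock contrast was computed as the mean log2 CPM of Arntl, Npas2 and Cry1 minus the mean log2 CPM of the 6 genes of the other set, without Ccrn4l. It orders mice by the balance of the sets and is not a time of day. In control mice 1 to 5 it was -2.60, -2.45, -1.95, -0.54 and -1.66. In obese mice it was -1.81, -2.39, -1.65, -2.04 and -1.94, and in formerly obese mice -1.74, -1.89, -0.87, -2.06 and -1.28. Control mouse 4 and formerly obese mice 3 and 5 had the highest values, and the groups overlapped, with means of -1.84 ± 0.82, -1.97 ± 0.28 and -1.57 ± 0.49 (SD, n = 5). Obese mice had the narrowest range.

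Ccrn4l did not follow this contrast within groups, with r = -0.04 and Spearman's rho = -0.03 over 15 mice, and r = -0.18 without control mouse 4. The same r was -0.97 for Dbp and for Tef and 0.93 for Arntl, which are themselves part of the contrast. For Cry1, also part of it, r was 0.52, and 0.16 without control mouse 4. In a fit with group and contrast, the slope of Ccrn4l was -0.015 log2 units per unit of contrast (SE 0.067), at percentile 11.4 of the absolute slopes of all tested genes. The median absolute slope was 0.079.

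**Figure D4:**
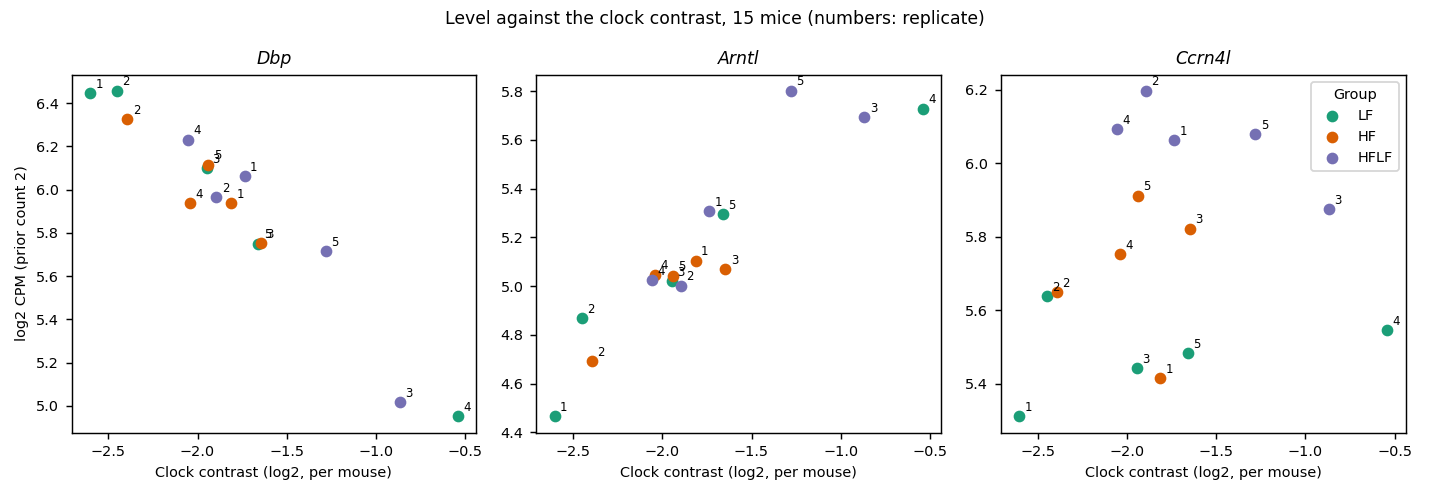
log2 CPM of Dbp, Arntl and Ccrn4l (vertical axis, each panel with its own range) against the clock contrast of the mouse (horizontal axis, log2), coloured by group and numbered by mouse. Dbp falls and Arntl climbs along the contrast, of which both are part, whereas Ccrn4l is higher in the formerly obese mice, whose contrasts run from -2.06 to -0.87, than in any control mouse, with a within-group r of -0.04.

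With the clock contrast as a covariate, the log2 fold change of Ccrn4l was 0.58 (SE 0.09) between formerly obese and control mice, against 0.58 without it. For formerly obese against obese mice it was 0.35 (SE 0.09), against 0.34, and between obese and control mice 0.23 (SE 0.09), against 0.23. Leaving out each of the 15 libraries in turn moved the first of these values between 0.54 and 0.64. Without control mouse 4 and formerly obese mice 3 and 5 together it was 0.64 (SE 0.11). Clock members were called in a few settings too. Per2 was called between obese and control mice in 3 of 25 alternative settings (the compared groups alone, 0.41, the contrast as covariate, 0.37, and without those 3 mice, 0.30). In formerly obese against control mice it was called in 2 (the covariate, 0.42, and without those 3 mice, 0.50), and Per2 is itself part of the contrast. Nr1d1, also part of it, was called in 1 setting for obese against control mice (without those 3 mice, -0.305) and in 1 for formerly obese against obese mice (with the covariate, 0.41).

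A single contrast holds only 1 direction of the clock, so each clock gene was also used alone as the covariate. For formerly obese against control mice, the log2 fold change of Ccrn4l was then lowest with Cry1, 0.51 (SE 0.11), a value that no longer passed the call, and next with Per2, 0.54 (SE 0.08). With each of the other 7 genes it was 0.57 to 0.58. With Arntl and Per2 entered together, it was 0.37 (SE 0.10) between formerly obese and control mice and was not called, 0.29 (SE 0.08) between formerly obese and obese mice, and 0.08 (SE 0.09) between obese and control mice. The difference between formerly obese and control mice thus kept its size beside the contrast and was smaller beside Arntl and Per2 together. These fits were added after the data were seen, and whether they stand for clock phase was not tested.

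Among 11026 genes outside the 10 with a mean of at least 50 counts, those most like Ccrn4l over the 15 libraries were Slc46a3 (Pearson's r = 0.916 in log2 CPM), Mep1a (0.904), Fndc3a (0.902), Abr (0.886) and Phlpp2 (0.874). Within groups their r with Ccrn4l was 0.61 to 0.71. Mep1a encodes a brush border protease, and Slc46a3 a lysosomal transporter. The genes most like the clock contrast were Tagln2 (0.947), E2f2 (0.92), Rfc2 (0.913), Ppil1 (0.912) and Gcat (0.911), of which E2f2 and Rfc2 serve the cell cycle and DNA replication. Among the most opposed were Epb4.1l4a (-0.913), Ciart (-0.896), Cgnl1 (-0.894) and Mical2 (-0.894). Ciart encodes a repressor of the clock.

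Of 36 other clock genes, 32 were tested, and 0 to 2 were called in each comparison, beside the 1.58%, 3.72% and 2.65% of all tested genes given above. In obese against control mice edgeR called 0 (15 of 32 above 0, median log2 fold change 0), DESeq2 called 1, Per1, and 4 had an unadjusted p under 0.05. In formerly obese against control mice 1 was called higher and 0 lower (20 of 32 above 0, median 0.04), and between formerly obese and obese mice 0 higher and 2 lower (16 of 32 above 0, median 0.01). Per1, the fast-responding paralogue of Per2, was at 52.9 to 68.2 CPM in obese and 34.5 to 52.5 CPM in formerly obese mice, which did not overlap (log2 fold change -0.43, SE 0.15; edgeR adjusted p = 0.192). With the clock contrast as covariate the value of Per1 was -0.27. The call of Per1 was lost with the GC trend removed, without the 3 libraries with the highest contrast, and in 7 of the 15 fits that left out 1 library, those without control mouse 3, obese mice 1, 2, 4 and 5 and formerly obese mice 3 and 5 (log2 fold changes -0.47 to -0.36). Klf10, a clock-controlled repressor, was lower in formerly obese mice, with a mean ± SD of 50.7 ± 11.95 CPM against 74.5 ± 5.14 CPM in obese mice (log2 fold change -0.55, SE 0.11; edgeR adjusted p = 0.0541). Klf10 kept its call in all 15 such fits. Tsc22d3, which encodes the glucocorticoid-induced protein GILZ, was higher in formerly obese mice, with a mean ± SD of 64.3 ± 5.02 CPM against 52.8 ± 6.37 CPM in control mice (log2 fold change 0.29, SE 0.09; edgeR adjusted p = 0.114). Its call was lost with the covariate and without the 3 libraries with the highest contrast. It was also lost without control mouse 1 or 3 or formerly obese mouse 2, 3 or 5 (0.23 to 0.29).

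Slopes along the contrast were also read for the 32 tested clock genes outside it, of which 20 had an absolute slope above the median of all tested genes, 0.079. Per fitted unit of contrast, Ciart had a slope of -1.05 log2 units (SE 0.14) and Per1 of -0.44 (SE 0.06). Bhlhe40, a further E-box repressor, had a slope of -0.14 (SE 0.03). Ciart was at 2.96 CPM in control mouse 4 and 2.76 CPM in formerly obese mouse 3, against 5.85 to 12.4 CPM in the other 13. Clock and Cry2, which oscillate little in most tissues, had slopes of 0.08 (SE 0.04) and -0.10 (SE 0.05). Slopes of Rora and Nfil3, both at low levels, were -0.56 (SE 0.22) and 0.105 (SE 0.14). Of these 7 genes, Per1 alone was called in any of the 3 comparisons. Bhlhe41 and Hlf, with mean levels of 0.156 and 0.312 CPM, were too low to test.

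Of 10 relatives of nocturnin and deadenylases (Angel1, Angel2, Pde12, Parn, Pan2, Pan3 and 4 Cnot genes), 0 were called by edgeR or DESeq2 in any comparison, with 1 at an unadjusted p under 0.05 in each. At the shares called among all tested genes (1.58%, 3.72% and 2.65%), a count of 0 among 10 genes does not set them apart. Their median log2 fold changes were 0, 0.01 and 0.03 between obese and control, formerly obese and control, and formerly obese and obese mice. Of 7 glucocorticoid-responsive genes, 3 rose (Fkbp5, Sgk1 and Tsc22d3, which was also counted with the other clock genes) and 1 fell in formerly obese against control mice. Fkbp5, a chaperone partner of the receptor, had a log2 fold change of 0.45 (SE 0.11; edgeR adjusted p = 0.035). The phosphatase gene Dusp1 fell, with one of -0.67 (SE 0.19; edgeR adjusted p = 0.0682). In obese against control mice, 1 rose, the kinase gene Sgk1 (0.60, SE 0.13; edgeR adjusted p = 0.0918), and 1 fell, Zbtb16 (-0.60, SE 0.15; edgeR adjusted p = 0.138). For formerly obese against obese mice, Fkbp5 rose and Per1, a member of this list too, fell. In formerly obese against control mice, Fkbp5 and Dusp1 kept their calls in all 15 fits that left out 1 library, Tsc22d3 in 10 and Sgk1 in 8. The call of Sgk1 was also lost there with the clock contrast as covariate and without the 3 libraries with the highest contrast. Against obese mice Fkbp5 kept its call in 10 such fits. Sgk1 was not called in obese mice without obese mouse 3 (0.56), nor Zbtb16 without control mouse 2 or obese mouse 3, 4 or 5 (-0.58 to -0.52).

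Of 15 tested immediate early genes, 8 fell and 0 rose in formerly obese against control mice, where 3.72% of all tested genes were called. Against obese mice 5 fell, where 2.65% of tested genes were called. Between obese and control mice 0 were called, where 1.58% of tested genes were, while DESeq2 called 1 and 2 had an unadjusted p under 0.05. In formerly obese against control mice 3 of the 15 were above 0 and not called, Fosl2 (0.14), Klf6 (0.16) and Ier3 (0.02). Nr4a1, a nuclear receptor induced within minutes of stimulation, was lower in formerly obese than in control mice by a log2 fold change of -1.01 (SE 0.20; edgeR adjusted p = 0.0233), and Ier2 by one of -0.44 (SE 0.08; edgeR adjusted p = 0.0233). Against obese mice, Jund (-0.56, SE 0.10; edgeR adjusted p = 0.0297) and Junb (-0.58, SE 0.12; edgeR adjusted p = 0.0541) had the smallest p. These calls of Nr4a1, Ier2, Jund and Junb held in all 15 fits that left out 1 library. Immediate early genes respond within minutes to stimuli, handling included, and their part in the level of Ccrn4l was not tested.

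Genes of absorptive function were taken as a further list. Of 13 genes of dietary fat absorption, 5 were too low to test (Apoa1, Apoa4, Apoc3, Fabp1 and Cd36, means of 0.0352 to 0.246 CPM). Of the 8 tested genes, 2 rose in obese mice (Apob and Dgat2) and 3 in formerly obese mice (the same genes and Fabp2) against control mice. Of all tested genes, 1.58% were called between obese and control mice and 3.72% between formerly obese and control mice. Between formerly obese and obese mice it was 2.65%. In formerly obese mice DESeq2 called 2 of them against control mice and not Fabp2. Between formerly obese and obese mice 0 were called by edgeR or DESeq2 (1 had an unadjusted p under 0.05). Apob, the scaffold of chylomicrons, had log2 fold changes of 0.45 (SE 0.12; edgeR adjusted p = 0.142) in obese and 0.43 (SE 0.12; edgeR adjusted p = 0.0653) in formerly obese mice. In formerly obese against obese mice the log2 fold changes went both ways. Of the 8 fat absorption genes, 5 were above 0 (Fabp2 highest, 0.485), while Apob (-0.03), Mttp (-0.06) and Dgat2 (-0.16) were below 0. Among the 6 tested small intestine genes, given below, 4 were above 0, Fabp2 and the called Mep1b (0.31) included. Alpi (-0.02) and Enpep (-0.30) were below 0 and not called. With each of 15 libraries left out in turn, Apob kept its call in obese mice in 10 fits (0.40 to 0.48 in the others, those without control mice 1 and 2 and obese mice 3, 4 and 5) and in formerly obese mice in 15, Dgat2 in 15 of both, and Fabp2 in 8. The summed level of the fat absorption list was 1000 to 1370 CPM in control, 1200 to 1510 CPM in obese and 1390 to 1720 CPM in formerly obese mice. Of 9 genes typical of the small intestine, 3 were nearly absent from this epithelium and not tested, Lct, Apoa1 and Apoa4 (means of 0.128, 0.214 and 0.0352 CPM). Of the 6 tested, 2 rose in obese mice (Enpep, log2 fold change 0.75, and Alpi, 0.65). In formerly obese mice 4 rose against control mice (Sis, 0.71, and Mep1b, 0.28, with the smallest p) and 1, Mep1b, against obese mice. The shares of all tested genes called are those given above. Over the fits that left out 1 library, Enpep was called in 12 of 15, Alpi in 5 in obese and 7 in formerly obese mice, Sis in 14, and Mep1b in 11 against control and 12 against obese mice. This list summed to 528 to 917 CPM in control, 635 to 891 CPM in obese and 748 to 1050 CPM in formerly obese mice. Fabp2, with a mean of 446 CPM, is in both lists and both sums, and is 1 of the 4 genes that rose here. Krt20, a gene of mature surface epithelium, and Cidec, a lipid droplet gene also used as an adipocyte marker, rose in formerly obese against control mice (log2 fold changes 0.55 and 0.93). Krt20 was not called without control mouse 1 (0.48), nor Cidec without control mouse 2 or formerly obese mouse 1 (0.70 to 0.84). Immune markers summed to 24.8 to 79.9, 34.5 to 92.7 and 50.6 to 282 CPM. The part of these genes in the level of Ccrn4l was not tested.

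Whole-genome bisulfite sequencing of the same groups gave a list of 8199 differentially methylated regions (DMRs) between obese and control mice, each with a direction. Within 100 kb of the gene start, 6 of the 10 genes had a DMR, beside 51.7% of all gene entries. Within 50 kb it was 5 of 10 genes beside 32.9%, and within 10 kb 0 of 10 beside 9.74%. Ccrn4l, Per2, Per3 and Tef had none within 100 kb. Npas2 had the only DMR inside a member, chr1:39238233-39238318, which was more methylated in obese mice and lies 44 kb from the start. Nr1d1 had the nearest, 13.1 kb from the start and less methylated in obese mice (chr11:98762209-98762252). No list for formerly obese mice and no methylation value per mouse was used here.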

How the data were processed

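Epithelial RNA of 15 mice was sequenced from a stranded mRNA library. Per the labels and methods, the authors trimmed reads with cutadapt, mapped them to mm10 with TopHat2 2.0.4 and deposited raw read counts per gene from HTSeq. The annotation release was not given in the sources used here. Their DESeq2 tables of fold changes and p-values, and the bisulfite amplicon values, were not used. The deposited DMR list, from Bismark alignments, served for positions only.

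Counts were analysed in R 4.3.3 with edgeR 4.0.16 (filterByExpr, TMM, quasi-likelihood F test, group as the only term, all 15 libraries), with Benjamini-Hochberg adjustment over 12961 genes and the cutoffs of the study. CPM are scaled by TMM, with a prior count of 2 for log2 CPM. DESeq2 1.42.0, other scalings, no filter, a replicate block, a GC trend and each library left out were alternatives. In simulated data with 12961 genes, 200 of them changed, for the comparison of obese with control mice, 76% of 1.5-fold and 91% of 2-fold changes were recovered, with 35 false calls. No such values are given for the other comparisons. No 2 libraries of a group were copies, the lowest chi-square per degree of freedom between them being 5.47.

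The members and lists were chosen with earlier results of these data known. Named genes were the 10 members, the called and 10 set genes of the other clock lists, up to 2 called genes with the smallest p of other lists, and the genes most like Ccrn4l or the clock contrast. Per library, the 10 genes held 138 to 3313 counts, which sets their counting precision. Some genes that this rule names are not reported here.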

Additional observations from a re-analysis of the deposited data

Results flagged for a closer look

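Among 33 sets of 5 values (10 genes and the clock contrast in 3 groups), 2 held a mouse set apart from the others by more than 0.71 of the range of its group, and chance gives about 1 in 20. Arntl in obese mouse 2 was 25.73 CPM, against 32.85 to 34.28 CPM in the other obese mice. Nr1d2 in formerly obese mouse 3 was 85.4 CPM, against 112.8 to 121.3 CPM in the other formerly obese mice. Control mouse 4, which was at an end of its group for 9 genes, was not set apart by this measure for any of them.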

How the results depend on the processing

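The log2 fold change of Ccrn4l was above 0 under all 75 alternative settings of the 3 comparisons, and no value of a called gene turned its direction. Leaving out each library moved it between 0.53 and 0.62 (formerly obese against control), 0.28 and 0.40 (formerly obese against obese) and 0.18 and 0.30 (obese against control), and its call was lost against obese mice with an adjusted p under 0.05. With the clock contrast as covariate the same ranges were 0.54 to 0.64, 0.28 to 0.40 and 0.17 to 0.30. With Arntl and Per2 as covariates, Ccrn4l moved to 0.367 against control mice and to 0.083 for obese against control mice.

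Mice were not treated as paired by replicate number. Of 15 pairs of same-numbered libraries, 5 had r over 0.1 (range -0.231 to 0.333). Libraries of different number were not compared, so these r do not settle whether the numbers pair mice. The fit with the replicate block called 252, 537 and 346 genes in the order obese against control, formerly obese against control and formerly obese against obese, beside 205, 482 and 343, and 2 other clock genes in the second of these, Tsc22d3 and Klf10.

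Between obese and control mice, 16 genes had an adjusted p under 0.05, 333 were called with the clock contrast as covariate, 365 without the 3 libraries with the highest contrast, and 40 to 331 with each library left out (40 without obese mouse 3, 331 without obese mouse 2). Other clock genes called there were 1, Per1, with DESeq2, with the compared groups alone, with the covariate and without the 3 libraries, and 0 to 0 with each library left out. In formerly obese against control mice, 282 genes had an adjusted p under 0.05 and 362 to 660 were called with each library left out. Other clock genes called were 0 at that cutoff, 0 with the covariate and 0 to 2 with each library left out. In formerly obese against obese mice, 25 genes had an adjusted p under 0.05, 219 were called without the 3 libraries, and 167 (without formerly obese mouse 5) to 400 with each library left out. Other clock genes called were 0 at that cutoff, 1 without the 3 libraries and 1 to 3 with each library left out. Of the members, 0 had a DMR within 10 kb, against 6 within 100 kb. The causes were not tested.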
